A study of Homo sapiens with 9 samples.

Results

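ATF4 and 36 genes that it is known to switch on or that supply the cell with amino acids, serine and charged tRNA were followed in cells of SKOV3, a human line from ovarian cancer. The 37 genes were chosen by name from the 36785 genes of the deposited table: 12 transcription factors and stress targets, 10 enzymes of asparagine, serine, one-carbon and proline metabolism with PCK2, 8 amino acid transporters, and 7 genes of tRNA charging and export. All 37 passed the filter on low counts. Every library came from lentivirally transduced cells. The groups were sh1, labelled as the first STXBP6 knockdown, sh3, labelled as the third, and shNC, whose genotype label reads NC, with 3 libraries each. No label states that replicates were grown apart, so p-values measure the spread between libraries, which may be technical.

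ATF4 is a transcription factor whose mRNA is translated more when eIF2 is phosphorylated, as happens in amino acid shortage, endoplasmic reticulum stress or viral infection. It pairs with C/EBP proteins on composite DNA elements in front of genes for amino acid uptake, amino acid synthesis and tRNA charging, and of stress genes such as DDIT3, TRIB3 and CHAC1. Because much of this control acts on ATF4 protein, mRNA levels describe one layer of the pathway only.

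The sequence that ATF4 and C/EBP partners are known to bind, TGATGNAA, was looked up on either strand in the 250 bases before the RefSeq start sites (GRCh38.p14). Of the 37 genes, 31 had an entry and 6 of these 31 (19.4%) held a match, against 1061 of 27305 genes in the whole promoter table (3.89%). A gene counted if any of its windows matched. By window, 6 of 49 held a match for these genes, against 1104 of 35116 (3.14%) in the whole promoter table. Known ATF4 targets are among the 37 by choice. PSPH, PYCR1, ALDH1L2, SHMT2, NUPR1 and EIF4EBP1 had no entry. The 6 windows with a match follow, since an element of this kind is how ATF4 is known to reach its targets, each written 5′ to 3′ along the gene and ending at the base before the start, with the match in capitals. They are CHAC1 on the plus strand at chr15:40953221-40953470, AARS1 on the minus strand at chr16:70289507-70289756, ASNS on the minus strand at chr7:97872409-97872658, SLC1A5 on the minus strand at chr19:46784815-46785064, CEBPG on the plus strand at chr19:33373863-33374112 and GARS1 on the plus strand at chr7:30594628-30594877.
CHAC1: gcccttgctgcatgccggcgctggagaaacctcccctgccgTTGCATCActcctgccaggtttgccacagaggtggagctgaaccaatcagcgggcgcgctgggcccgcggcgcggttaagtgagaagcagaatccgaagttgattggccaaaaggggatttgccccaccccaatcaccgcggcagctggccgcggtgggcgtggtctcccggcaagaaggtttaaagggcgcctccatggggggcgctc
AARS1: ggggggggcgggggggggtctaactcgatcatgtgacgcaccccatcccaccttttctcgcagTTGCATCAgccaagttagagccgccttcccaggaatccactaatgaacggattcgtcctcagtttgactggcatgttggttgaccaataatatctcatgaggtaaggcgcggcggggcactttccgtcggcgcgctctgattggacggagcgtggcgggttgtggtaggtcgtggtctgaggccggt
ASNS: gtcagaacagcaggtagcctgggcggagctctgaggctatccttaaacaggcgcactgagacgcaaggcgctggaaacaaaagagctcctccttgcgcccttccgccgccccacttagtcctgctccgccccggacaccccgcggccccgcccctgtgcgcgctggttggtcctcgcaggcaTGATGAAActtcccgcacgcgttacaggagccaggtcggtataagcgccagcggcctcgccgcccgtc
SLC1A5: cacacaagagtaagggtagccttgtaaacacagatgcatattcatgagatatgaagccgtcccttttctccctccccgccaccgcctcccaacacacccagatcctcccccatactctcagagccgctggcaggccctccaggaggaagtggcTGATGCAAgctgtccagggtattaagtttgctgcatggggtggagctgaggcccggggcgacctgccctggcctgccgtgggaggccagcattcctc
CEBPG: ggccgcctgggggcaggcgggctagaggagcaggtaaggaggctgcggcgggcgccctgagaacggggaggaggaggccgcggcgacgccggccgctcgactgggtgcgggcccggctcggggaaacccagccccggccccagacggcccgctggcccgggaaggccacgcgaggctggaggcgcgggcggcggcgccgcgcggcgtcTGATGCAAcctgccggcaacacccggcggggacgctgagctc
GARS1: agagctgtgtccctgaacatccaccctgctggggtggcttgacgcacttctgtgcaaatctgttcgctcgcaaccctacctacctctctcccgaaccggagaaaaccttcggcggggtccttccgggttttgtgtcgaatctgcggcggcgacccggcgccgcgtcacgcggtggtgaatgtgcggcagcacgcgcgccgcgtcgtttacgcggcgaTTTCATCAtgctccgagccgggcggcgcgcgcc
The match read as TGATGNAA along the gene in ASNS, SLC1A5 and CEBPG, starting 68, 97 and 42 bases before the start site in that order. In CHAC1, AARS1 and GARS1 it lay on the opposite strand, as TTNCATCA, starting 209, 187 and 33 bases before the start site. The windows of CHAC1, SLC1A5, CEBPG and GARS1 lay inside the gene's coordinates in the deposited table, and that of AARS1 partly so. Their RefSeq start sites are thus not the outermost ends of those genes, while the ASNS window lay wholly outside its gene. A match describes these letters only, and says nothing of binding.

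The libraries held 57654447 to 69264400 counts, so that 3 counts correspond to 0.0433 to 0.052 CPM (counts scaled to library size). STXBP6 itself, a syntaxin-binding protein, had 7, 4 and 26 counts in sh1, 20, 31 and 18 in sh3, and 4, 0 and 15 in shNC. Counts were near 0 in shNC too, and all sh3 counts exceeded all shNC counts, which is not the direction of a knockdown. A knockdown was therefore not detectable in these counts, and every direction below rests on the labels. Of 10 ovarian carcinoma markers, 8 averaged at least 1 FPKM (fragments scaled to gene length and library size), and WT1 and MUC16 did not. Their summed level was 718.9 to 748.7 FPKM in sh1, 1145 to 1191 FPKM in sh3 and 1126 to 1228 FPKM in shNC. Most of that sum was ERBB2 (mean 500.4 FPKM in sh1, 853.5 in sh3 and 910.1 in shNC), and KRT7 went the other way (43.2, 25.1 and 23.5 FPKM). PAX8 (27.45, 36.5 and 57.1 FPKM), MSLN (3.79, 6.195 and 11.4 FPKM) and EPCAM were lower with both hairpins. KRT8 (97.8, 151.7 and 97.3 FPKM) and KRT18 were higher with sh3, and KRT18 and KRT19 were lower with sh1. Leukocyte markers summed to 10.4 to 11.2, 17.5 to 18.6 and 13.7 to 15.0 FPKM in the same order, with CD68 the one of 4 measured markers at 1 FPKM or more and PTPRC at 0 in 8 of 9 libraries. Fibroblast markers summed to 17.4 to 18.0, 11.4 to 12.3 and 14.5 to 18.4 FPKM and endothelial markers to 0.963 to 1.10, 2.67 to 2.86 and 1.87 to 2.12 FPKM. The fibroblast markers moved in different directions: COL1A1 averaged 8.77, 7.00 and 5.255 FPKM, and LUM 6.75, 3.38 and 9.59 FPKM. Means of DCN and PDGFRA were also lower with both hairpins, and that of COL1A2 was higher with sh1 and lower with sh3. The endothelial sum was nearly all KDR, while PECAM1 averaged 0.0225 FPKM in sh1, 0.0494 in sh3 and 0.174 in shNC, and VWF was at 0 in all sh3 libraries. The part of these shifts in the results was not tested. The third shNC library stood apart: its counts differed from those of the other shNC libraries by a chi-square of 15.6 and 17.3 per degree of freedom, against 8.51 to 10.3 for all other replicate pairs. Results that it decides are given with and without it.

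Levels of the 37 genes covered a wide range. By FPKM, 19 averaged 10 or more over the 9 libraries, 15 lay between 1 and 10, and STC2, SLC6A9 and ALDH1L2 lay below 1. SLC7A5, the large neutral amino acid transporter LAT1, was highest at 236 FPKM, ahead of ATF4 at 84.0, the translation repressor EIF4EBP1 at 61.2, the LAT1 partner chain SLC3A2 at 61.1, the asparaginyl-tRNA synthetase NARS1 at 53.6 and the serine-pathway enzyme PSAT1 at 44.4 FPKM. The first enzyme of serine synthesis, PHGDH, averaged 1.65 FPKM and asparagine synthetase, ASNS, 2.14 FPKM. The deposited FPKM imply gene lengths of 958 bases for EIF4EBP1 to 18935 bases for GARS1, and 10039 bases for PHGDH, so the FPKM of genes with a long implied length stand low beside their CPM. All levels below are CPM scaled by TMM factors and compare libraries within a gene.

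The 37 genes moved in both directions with each hairpin. With sh1, 12 were higher and 8 lower than in shNC at an adjusted p under 0.05 (edgeR quasi-likelihood test), which is 32.4% and 21.6% of the 37, against 19.9% and 18.8% of all 21296 genes tested (38.7% in either direction). With library totals in place of TMM the sh1 split was 10 higher and 10 lower. With sh3, 3 were higher and 8 lower, which is 8.11% and 21.6%, against 14.4% and 12.4% of all genes tested (26.9% in either direction). The sh3 count of higher genes was 5 without sh3 replicate 1 and 6 without shNC replicate 3. Counted by overlap alone, the sh1 libraries lay wholly above shNC for 13 members and wholly below for 9, beside 24.6% and 25.3% of all genes tested. For sh3 these were 6 and 9 members, beside 20.8% and 19.8% of all genes tested. The genes tested were not matched to the 37 by level, and a call is harder to reach at low counts. Shares here and below therefore stand beside an unmatched background. Median log2 fold changes were 0.05 with sh1 and -0.02 with sh3, beside -0.02 and -0.01 over all genes tested. In bulk RNA a change in the mix of cells and a change in RNA per cell cannot be told apart. Both comparisons use the same 3 shNC libraries, so their values are given side by side and likeness between them is not counted as support.

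**Figure D1:**
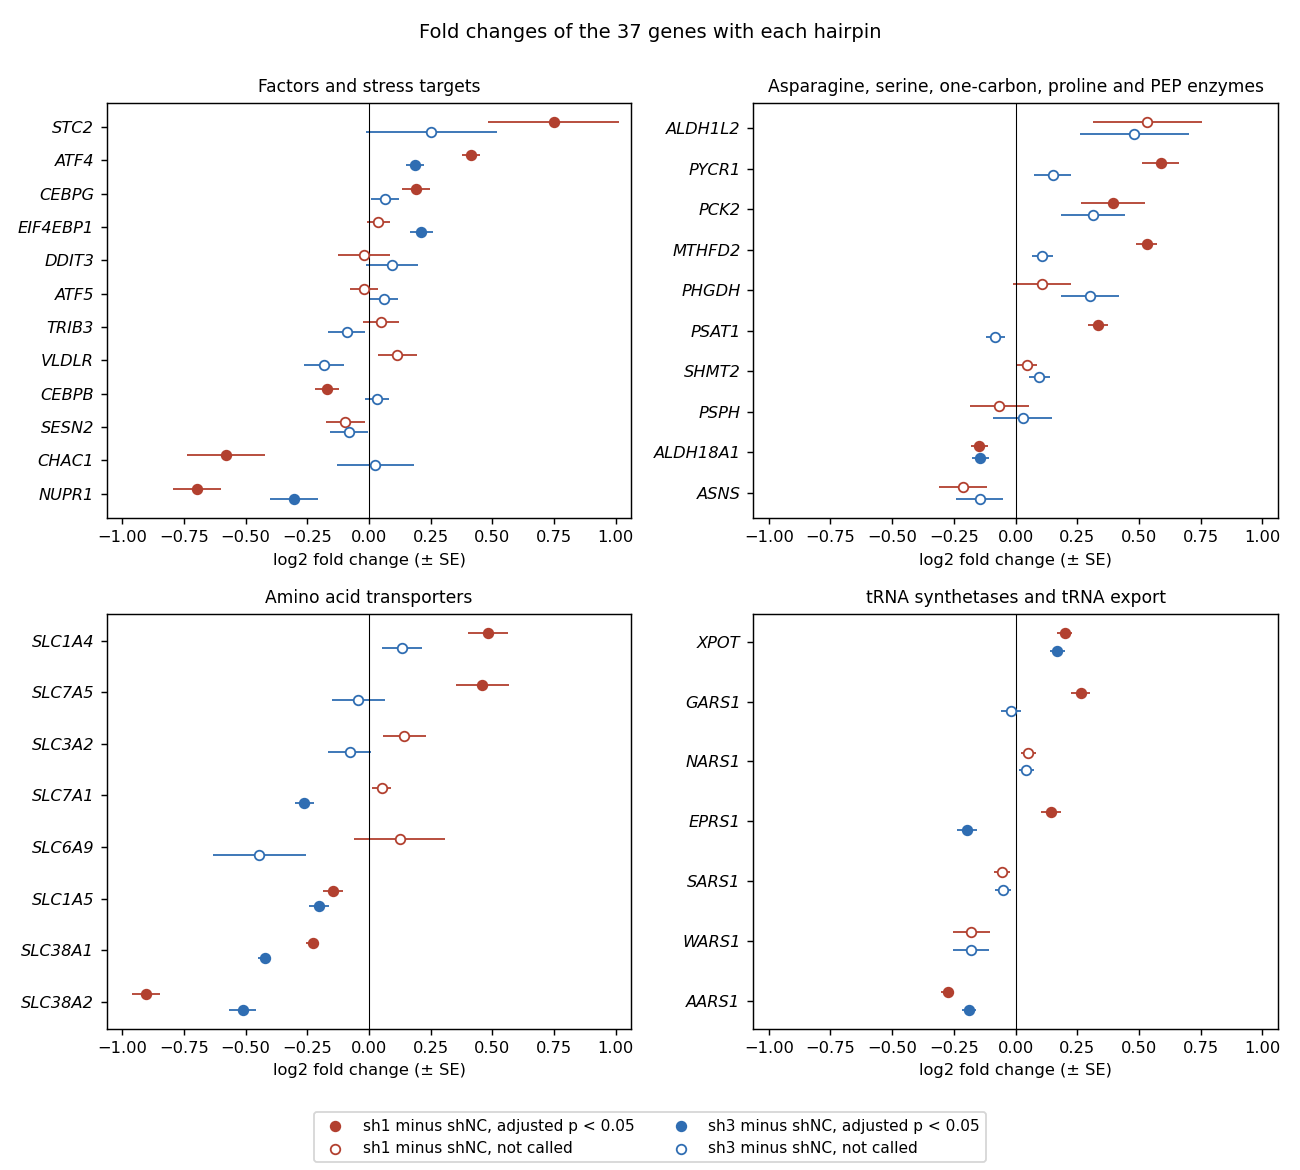
Log2 fold change (x axis, ± SE) of each of the 37 genes with sh1 (red) and sh3 (blue) against shNC, in 4 panels by role, with filled points for genes called at an adjusted p under 0.05. The values run from -0.90 for SLC38A2 with sh1 to 0.75 for STC2 with sh1, and filled points lie on both sides of 0 in every panel.

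Among the 12 factors and stress targets, ATF4 rose with both hairpins while NUPR1 fell with both and CHAC1 fell with sh1. In all, 3 were higher and 3 lower with sh1 (25% each, beside 19.9% and 18.8% of all genes tested), and 2 higher and 1 lower with sh3 (16.7% and 8.33%, beside 14.4% and 12.4%). The 3 higher with sh1 became 1 with library totals or without shNC replicate 2, and the 1 lower with sh3, NUPR1, depended on the alternatives named below. ATF4 (ENSG00000128272, chr22:39519695-39522683) had 264, 277 and 286 CPM in sh1, 245, 232 and 229 CPM in sh3, and 207, 212 and 202 CPM in shNC. No library of one group overlapped another group, with sh1 highest and shNC lowest. The log2 fold change was 0.41 ± 0.04 (SE, 1.33-fold, adjusted p = 3.7e-06) with sh1 and 0.19 ± 0.04 (1.14-fold, adjusted p = 0.0028) with sh3, and sh3 lay 0.23 below sh1 (log2 fold change -0.23, adjusted p = 8.6e-04).

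NUPR1 (ENSG00000176046, chr16:28532708-28538974), a small stress-induced chromatin protein, had 11.8, 10.5 and 13.1 CPM in sh1, 15.9, 15.3 and 15.4 CPM in sh3, and 19.6, 20.7 and 17.1 CPM in shNC. The 3 groups did not overlap, in the reverse order of ATF4. It fell by 0.70 ± 0.10 on the log2 scale with sh1 (adjusted p = 1.2e-04) and by 0.30 ± 0.10 with sh3 (adjusted p = 0.035). The sh3 call was lost in 8 of 14 alternatives, among them the fit with no filter (adjusted p = 0.067) and those without sh1 replicate 1 (0.0501), without sh3 replicate 1, 2 or 3 (0.072, 0.095 and 0.101) and without shNC replicate 1 or 2 (0.107 and 0.142).

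CHAC1 (ENSG00000128965, chr15:40952962-40956512), which degrades glutathione and is a known ATF4 target, had 1.94, 1.59 and 1.95 CPM in sh1, 2.53, 2.91 and 2.91 CPM in sh3, and 2.55, 2.76 and 2.89 CPM in shNC. All sh1 values lay below both other groups, while sh3 and shNC overlapped. The log2 fold change was -0.58 ± 0.16 with sh1 (adjusted p = 0.012, and 0.052 without sh1 replicate 2) and 0.03 ± 0.16 with sh3 (adjusted p = 0.93).

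CEBPG (ENSG00000153879, chr19:33373685-33382686), a C/EBP protein that dimerises with ATF4, had 64.3, 57.7 and 59.6 CPM in sh1, 59.4, 55.6 and 51.3 CPM in sh3, and 53.7, 52.0 and 53.3 CPM in shNC. The sh1 values lay above all shNC values, and the sh3 range spanned them. It rose by 0.19 ± 0.06 on the log2 scale with sh1 (adjusted p = 0.019) and differed by 0.06 ± 0.06 with sh3 (adjusted p = 0.47). The sh1 call was lost with library totals (adjusted p = 0.054), without sh1 replicate 1 (0.085) and without shNC replicate 2 (0.061). Its relative CEBPB was lower with sh1 at a log2 fold change of -0.17 ± 0.05 (adjusted p = 0.015), a call lost without sh1 replicate 1 (0.0505), sh1 replicate 3 (0.061) or shNC replicate 1 (0.0504), and stood at 0.03 with sh3 (adjusted p = 0.68).

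The best-known downstream factors showed no call. DDIT3, the pro-apoptotic factor CHOP, had 9.23, 10.9 and 9.14 CPM in sh1, 9.75, 11.4 and 10.5 CPM in sh3, and 9.31, 9.86 and 10.5 CPM in shNC, so that all groups overlapped (log2 fold changes -0.02 ± 0.11 and 0.09 ± 0.11, adjusted p = 0.91 and 0.59 with sh1 and sh3). The pseudokinase TRIB3 stood at 0.05 and -0.09, the leucine sensor SESN2 at -0.10 and -0.08, and ATF5, a factor under similar translational control, at -0.02 and 0.06 with sh1 and sh3. EIF4EBP1, which holds back cap-dependent translation, rose with sh3 by 0.21 ± 0.05 (adjusted p = 0.0049), with 63.9 ± 0.80 CPM in sh3 against 55.2 ± 2.86 CPM in shNC (SD, n = 3 each) and no overlap, and stood at 0.04 with sh1 (adjusted p = 0.59). STC2, a secreted glycoprotein, was called higher with sh1 at 0.75 ± 0.26 (adjusted p = 0.043), but its level was low. That call was lost in 8 of 14 alternatives, among them those without sh1 replicate 2 or 3 (adjusted p = 0.084 and 0.153), without sh3 replicate 2 (0.056) and without shNC replicate 2 or 3 (0.055 and 0.131). The lipoprotein receptor VLDLR stood at 0.12 and -0.18 (adjusted p = 0.30 and 0.12), and was called lower with sh3 without shNC replicate 3 (-0.24, adjusted p = 0.045).

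Among the enzymes MTHFD2, PYCR1, PSAT1 and PCK2 rose with sh1, and ALDH18A1 fell with both hairpins. Of the 10 enzymes 4 were higher and 1 lower with sh1 (40% and 10%, beside 19.9% and 18.8% of all genes tested), and none was higher and 1 lower with sh3 (10% lower, beside 12.4%). With sh3, 2 were higher without sh3 replicate 1 and 2 without shNC replicate 3 (MTHFD2 at 0.14, adjusted p = 0.028, and PCK2 at 0.45, adjusted p = 0.020). DESeq2 called 1 higher with sh3. MTHFD2 (ENSG00000065911, chr2:74186172-74217565), which in mitochondria oxidises the folate-bound carbon taken from serine, had 84.7, 81.7 and 85.4 CPM in sh1, 64.6, 61.7 and 61.6 CPM in sh3, and 55.5, 58.2 and 60.6 CPM in shNC. The sh1 libraries stood well clear of the rest, and sh3 lay just above shNC. It rose by 0.53 ± 0.04 on the log2 scale with sh1 (1.44-fold, adjusted p = 1.3e-06), against 0.11 ± 0.04 with sh3 (adjusted p = 0.081).

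PYCR1 (ENSG00000183010, chr17:81932384-81941079), which makes proline in mitochondria, had 20.4, 22.2 and 21.2 CPM in sh1, 16.2, 16.3 and 14.6 CPM in sh3, and 13.6, 13.8 and 15.0 CPM in shNC. Only sh1 was free of overlap with shNC. It rose with sh1 by 0.59 ± 0.08 (adjusted p = 6.1e-05) and stood at 0.15 ± 0.08 with sh3 (adjusted p = 0.18). ALDH18A1 (ENSG00000059573, chr10:95605941-95656711), which acts one step earlier on the way from glutamate to proline, moved the other way, with 149, 151 and 161 CPM in sh1, 155, 152 and 155 CPM in sh3, and 166, 169 and 175 CPM in shNC. Both hairpin groups lay below shNC. It fell by 0.15 ± 0.03 on the log2 scale with sh1 (adjusted p = 0.0050) and by 0.14 ± 0.03 with sh3 (adjusted p = 0.0092).

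PSAT1, the aminotransferase in the middle of serine synthesis, had 129, 123 and 125 CPM in sh1, 91.0, 96.0 and 96.2 CPM in sh3, and 97.5, 96.9 and 105 CPM in shNC. It was thus above shNC in every sh1 library and slightly below it in every sh3 library. The rise with sh1 was 0.33 ± 0.04 (1.26-fold, adjusted p = 3.6e-05), and the sh3 value was -0.08 ± 0.04 (adjusted p = 0.17). The enzymes before and after it were not called. PHGDH had 13.8, 17.6 and 17.1 CPM in sh1, 16.1, 17.9 and 21.6 CPM in sh3, and 15.8, 14.8 and 14.4 CPM in shNC (log2 fold changes 0.11 ± 0.12 and 0.30 ± 0.12, adjusted p = 0.53 and 0.081 with sh1 and sh3). PSPH, the phosphatase of the last step, stood at -0.07 and 0.03. SHMT2, which splits serine in mitochondria, stood at 0.05 and 0.10, and the mitochondrial folate dehydrogenase ALDH1L2, at low levels, at 0.53 (adjusted p = 0.079) and 0.48 (adjusted p = 0.14). Without sh3 replicate 1 the sh3 values of PHGDH (0.40, adjusted p = 0.038) and ALDH1L2 (0.70, adjusted p = 0.019) were called. The sh1 value of ALDH1L2 was called without sh3 replicate 1 or 3 (0.54, adjusted p = 0.027 and 0.037). It was also called with sh1 and shNC fitted alone (adjusted p = 0.0197).

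PCK2 (ENSG00000100889, chr14:24094053-24104125), the mitochondrial phosphoenolpyruvate carboxykinase, had 7.35, 7.84 and 7.36 CPM in sh1, 6.87, 7.15 and 7.26 CPM in sh3, and 4.81, 5.58 and 6.76 CPM in shNC. Neither hairpin group overlapped shNC, whose own libraries were spread widely. The log2 fold change was 0.40 ± 0.13 with sh1 (adjusted p = 0.030) and 0.31 ± 0.13 with sh3 (adjusted p = 0.10). The sh1 call was lost in 6 of 14 alternatives, including the fits without any one of sh1 replicates 1, 2 and 3 (adjusted p = 0.059, 0.089 and 0.0585) and without shNC replicate 1 (0.123) or 2 (0.0835). ASNS, the amide-forming enzyme most often used to read ATF4 activity, had 10.3, 10.9 and 11.0 CPM in sh1, 11.6, 10.3 and 11.9 CPM in sh3, and 12.6, 11.2 and 13.5 CPM in shNC. All sh1 values lay below the shNC values, yet the log2 fold changes of -0.21 ± 0.10 with sh1 (adjusted p = 0.11) and -0.15 ± 0.10 with sh3 (adjusted p = 0.32) were not called.

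Among the transporters SLC38A2, SLC38A1 and SLC1A5 fell with both hairpins and SLC7A1 with sh3, while SLC1A4 and SLC7A5 rose with sh1. Of the 8, 2 were higher and 3 lower with sh1 (25% and 37.5%, beside 19.9% and 18.8% of all genes tested), and none was higher and 4 lower with sh3 (50% lower, beside 12.4%). Without shNC replicate 3 there were 4 higher with sh1 and 1 with sh3, and without shNC replicate 2 there was 1 higher with sh3. SLC38A2 (ENSG00000134294, chr12:46358188-46372773), the SNAT2 carrier of small neutral amino acids that cells induce when amino acids run short, had 193, 180.0 and 182 CPM in sh1, 255, 220.1 and 253 CPM in sh3, and 349, 328 and 362 CPM in shNC. The groups were fully separate, with shNC highest and sh1 lowest. It fell by 0.90 ± 0.06 on the log2 scale with sh1 (1.87-fold lower, adjusted p = 1.8e-07) and by 0.51 ± 0.06 with sh3 (1.43-fold lower, adjusted p = 3.8e-05).

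SLC38A1 (ENSG00000111371, chr12:46183063-46270017), the related SNAT1 carrier encoded nearby on chromosome 12, had 189, 187 and 185 CPM in sh1, 166, 162 and 162 CPM in sh3, and 218, 222 and 217 CPM in shNC. Here too the groups were separate, but sh3 was lowest. The falls were 0.23 ± 0.03 with sh1 and 0.42 ± 0.03 with sh3 (log2 fold changes -0.23 and -0.42, adjusted p = 2.6e-05 and 5.1e-07). SLC1A5, the glutamine carrier ASCT2, was lower by a smaller margin, at -0.15 ± 0.04 with sh1 (adjusted p = 0.013) and -0.20 ± 0.04 with sh3 (adjusted p = 0.0028). Its sh1 call was lost without sh1 replicate 1 (adjusted p = 0.066) or sh1 replicate 3 (0.053). SLC7A1, the arginine and lysine carrier CAT1, fell by 0.26 ± 0.04 with sh3, with 179.7, 183 and 174 CPM against 211, 205 and 227 CPM in shNC (adjusted p = 3.6e-04), and stood at 0.05 with sh1 (adjusted p = 0.34, and 0.034 at 0.09 without shNC replicate 3).

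SLC1A4 (ENSG00000115902, chr2:64988477-65023865), the ASCT1 carrier of serine, alanine and cysteine, had 35.9, 37.9 and 35.9 CPM in sh1, 28.8, 28.8 and 28.6 CPM in sh3, and 24.0, 30.4 and 24.1 CPM in shNC. The sh1 values were above every other library, and the sh3 values fell inside the shNC range. It rose with sh1 by 0.48 ± 0.08 (1.40-fold, adjusted p = 5.1e-04) and stood at 0.13 ± 0.08 with sh3 (adjusted p = 0.27), which became 0.26 without shNC replicate 2 (adjusted p = 0.0050). SLC6A9, the low-level glycine carrier GLYT1, stood at 0.12 and -0.44 without a call (adjusted p = 0.66 and 0.11), the sh3 value being called at -0.67 without sh3 replicate 1 (adjusted p = 0.016).

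For 3 genes the third shNC library set the spread. SLC7A5 (ENSG00000103257, chr16:87830023-87869507) had 1494, 1532 and 1513 CPM in sh1, 1044, 1073 and 1089 CPM in sh3, and 964, 961 and 1379.5 CPM in shNC. The sh1 libraries lay above all shNC libraries, while sh3 fell between shNC replicate 3 and the other 2. The log2 fold change was 0.46 ± 0.11 with sh1 (1.37-fold, adjusted p = 0.0049) and -0.04 ± 0.11 with sh3 (adjusted p = 0.82). Without shNC replicate 3 these became 0.65 (adjusted p = 2.6e-09) and 0.15 (adjusted p = 4.6e-04), so the sh3 value changed sign and was called higher. SLC3A2, its heavy-chain partner, had 459.6, 449.7 and 477 CPM in sh1, 395, 385 and 409.7 CPM in sh3, and 382, 374 and 500.0 CPM in shNC. It was called with neither hairpin (0.14 ± 0.09, adjusted p = 0.23, and -0.08 ± 0.09, adjusted p = 0.57), but without shNC replicate 3 was higher with sh1 at 0.29 (adjusted p = 2.8e-05), with 0.07 for sh3 (adjusted p = 0.16). WARS1, the tryptophanyl-tRNA synthetase, had 85.5, 86.3 and 85.4 CPM in sh1, 86.9, 87.2 and 82.8 CPM in sh3, and 104, 105 and 82.4 CPM in shNC. Its values of -0.18 ± 0.07 with either hairpin were not called (adjusted p = 0.078 and 0.097), and without shNC replicate 3 both were -0.28 (adjusted p = 4.9e-05 and 8.7e-05).

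**Figure D2:**
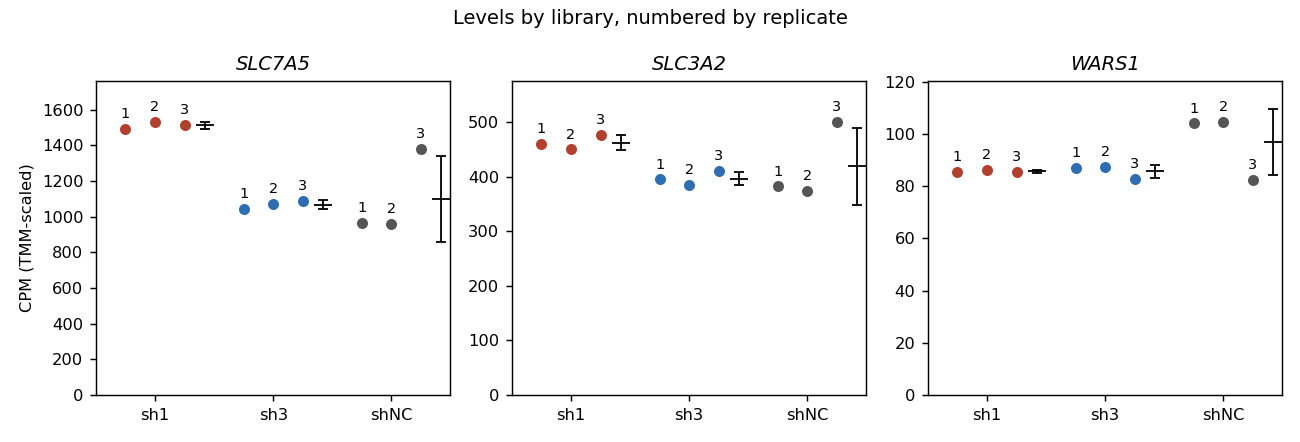
CPM scaled by TMM (y axis, from 0) of SLC7A5, SLC3A2 and WARS1 in each library of sh1, sh3 and shNC, with replicate numbers above the points and the mean ± SD of the 3 libraries beside them. The third shNC library stands at 1379.5 CPM for SLC7A5 and 500.0 CPM for SLC3A2, above the other shNC libraries, and at 82.4 CPM for WARS1, below them.

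In tRNA charging and export the members moved in different directions. Of the 7, 3 were higher and 1 lower with sh1 (42.9% and 14.3%, beside 19.9% and 18.8% of all genes tested), and 1 was higher and 2 lower with sh3 (14.3% and 28.6%, beside 14.4% and 12.4%). The 1 lower with sh1 became 3 with library totals and 2 with DESeq2 or without shNC replicate 3. AARS1 (ENSG00000090861, chr16:70251983-70289707), the alanyl-tRNA synthetase, had 173, 169 and 167 CPM in sh1, 182, 176 and 182 CPM in sh3, and 204, 207 and 205 CPM in shNC. Both hairpin groups were below every shNC library. It fell by 0.28 ± 0.03 on the log2 scale with sh1 (adjusted p = 8.0e-06) and by 0.19 ± 0.03 with sh3 (adjusted p = 3.1e-04).

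XPOT (ENSG00000184575, chr12:64404392-64451125), which carries tRNA out of the nucleus, had 222, 217 and 219 CPM in sh1, 208, 214 and 222 CPM in sh3, and 187, 193 and 192 CPM in shNC. All hairpin libraries exceeded all shNC libraries. It rose by 0.20 ± 0.03 with sh1 (adjusted p = 2.5e-04) and by 0.17 ± 0.03 with sh3 (adjusted p = 0.0015). GARS1 (ENSG00000106105, chr7:30580533-30634033), the glycyl-tRNA synthetase, had 81.2, 78.9 and 84.9 CPM in sh1, 66.3, 67.5 and 67.5 CPM in sh3, and 66.1, 67.6 and 70.3 CPM in shNC. The sh1 group stood alone, at 0.26 ± 0.04 on the log2 scale (adjusted p = 2.0e-04), beside -0.02 ± 0.04 with sh3 (adjusted p = 0.79).

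EPRS1 (ENSG00000136628, chr1:219968600-220046530), the fused glutamyl- and prolyl-tRNA synthetase, had 149, 155 and 153 CPM in sh1, 122, 119.9 and 118 CPM in sh3, and 129, 142 and 142 CPM in shNC. The sh1 libraries lay above shNC and the sh3 libraries below it. It rose with sh1 by 0.14 ± 0.04 (adjusted p = 0.012) and fell by 0.20 ± 0.04 with sh3 (adjusted p = 0.0030). The synthetases for asparagine, NARS1 (0.05 and 0.04), and serine, SARS1 (-0.05 and -0.05), were not called with either hairpin. With library totals SARS1 was called lower with sh1 (-0.09, adjusted p = 0.041).

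**Figure D3:**
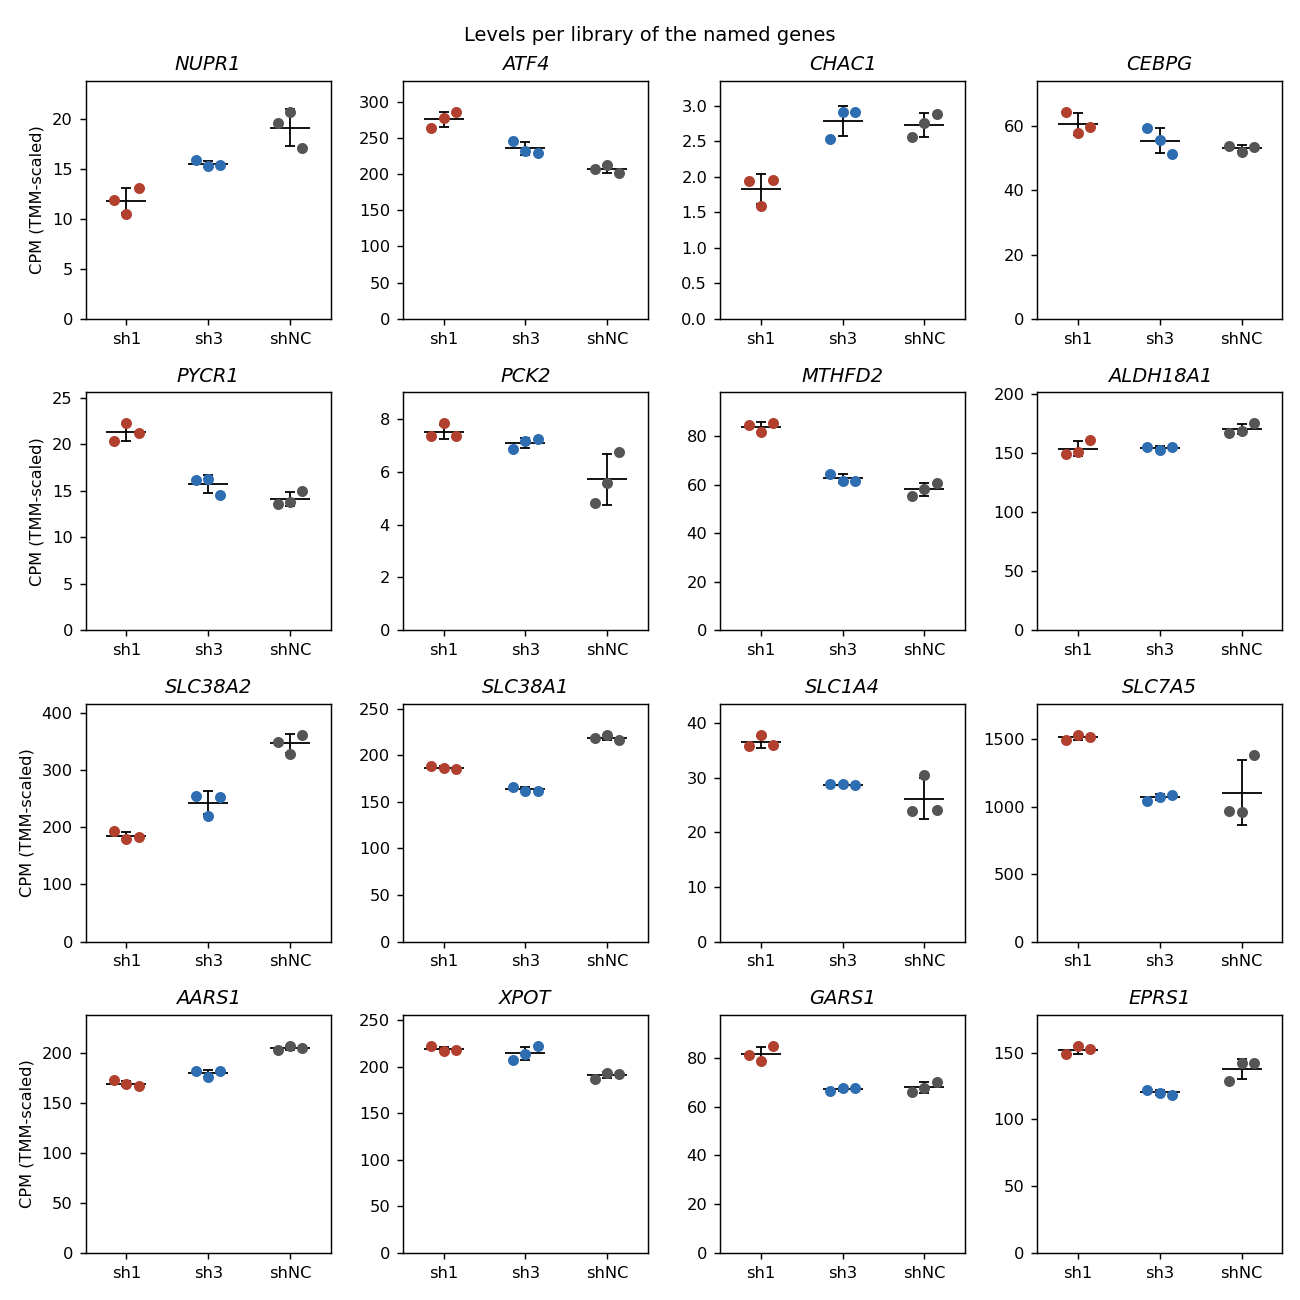
CPM scaled by TMM (y axes, from 0) of 16 genes in the 9 libraries, one panel a gene, with points for libraries and bars for the mean ± SD of 3 libraries. ATF4 descends and SLC38A2 ascends across sh1, sh3 and shNC with no overlap, while MTHFD2, PYCR1 and GARS1 are set apart in sh1.

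The direct comparison of the hairpins called 18 of the 37 genes, 6 higher and 12 lower in sh3 than in sh1, which is 16.2% and 32.4%, against 12.9% and 13% of all genes tested (25.9% in either direction). The 3 sh3 libraries lay wholly above the 3 sh1 libraries for 6 members and wholly below for 15, where 21% and 20.8% of all genes tested did so. Enzymes and transporters held 8 of the 12 lower genes: PSAT1, MTHFD2 and PYCR1 at log2 fold changes of -0.42, -0.42 and -0.44 (adjusted p = 1.7e-05, 2.4e-05 and 0.0011), and SLC7A5, SLC1A4, SLC7A1, SLC38A1 and SLC6A9 at -0.50, -0.35, -0.31, -0.19 and -0.57 (adjusted p = 0.0049, 0.0079, 1.1e-04, 2.3e-04 and 0.044). EPRS1 at -0.34, GARS1 at -0.28, ATF4 at -0.23 and VLDLR at -0.30 (adjusted p = 7.5e-05, 2.7e-04, 8.6e-04 and 0.017) were the other 4. Higher in sh3 than in sh1 were CHAC1 at 0.61, SLC38A2 at 0.39, NUPR1 at 0.39, CEBPB at 0.20, EIF4EBP1 at 0.17 and AARS1 at 0.09 (adjusted p = 0.015, 3.5e-04, 0.011, 0.0089, 0.016 and 0.037). Calls were lost on leaving out single libraries for SLC6A9 (any sh1 library, sh3 replicate 2 or 3, shNC replicate 1 or 2, highest adjusted p = 0.151), AARS1 (sh1 replicate 2 or 3, sh3 replicate 1 or 3, 0.144), VLDLR (sh1 replicate 2 or 3, sh3 replicate 1 or 3, 0.073), CHAC1 (sh1 or sh3 replicate 2, 0.062) and EIF4EBP1 (sh1 replicate 1, sh3 replicate 2, 0.070). CEBPG gained one without sh3 replicate 1 (-0.18, adjusted p = 0.0498), and SLC3A2, at -0.22 (adjusted p = 0.086), gained one without shNC replicate 3 (adjusted p = 1.7e-04). SLC3A2 was also called lower when sh1 and sh3 were fitted alone, with no shNC library. XPOT, ALDH18A1, PCK2 and WARS1 stood at -0.03, 0.00, -0.08 and -0.00 between the hairpins, none of them called (adjusted p = 0.52, 0.95, 0.70 and 0.99).

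Of the genes with the printed promoter match, CEBPG and GARS1 were called higher with sh1, CHAC1, AARS1 and SLC1A5 lower, and ASNS was not called. With sh3, AARS1 and SLC1A5 were lower and the other 4 were not called. The match therefore stood before a RefSeq start site of genes that moved in either direction and of genes with no call.

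The wider pathway was read from 8 lists of genes that are no members, with 136 genes tested. With sh1, 49 of these were higher and 33 lower, which is 36.0% and 24.3%, beside 19.9% and 18.8% of all genes tested. With sh3 there were 24 and 30, which is 17.6% and 22.1%, beside 14.4% and 12.4%. The shares given for each list below are to be read against the same background, and the lists were not tested for enrichment. Upstream, among 15 eIF2 kinases, phosphatases and eIF2B genes, 8 were higher and none lower with sh1 (53.3% higher), and 3 were higher and 2 lower with sh3 (20% and 13.3%), the 3 becoming 1 without sh3 replicate 2. The eIF2B subunit EIF2B3 gave 0.40 and 0.28, and eIF2 alpha itself, EIF2S1, gave 0.41 and 0.16 (adjusted p = 0.00015 and 7.7e-06 with sh1, 0.0030 and 0.010 with sh3). PPP1R15A, the stress-induced eIF2 phosphatase subunit, gave 0.21 with sh1 (adjusted p = 0.053) and 0.30 with sh3 (adjusted p = 0.013). Its sh1 value was called with DESeq2 (adjusted p = 0.036) and with the replicate block (0.039). It was also called without sh1 replicate 1 (0.0048) or sh3 replicate 1 (0.042). The sh3 calls of EIF2S1 (without sh3 replicate 2, adjusted p = 0.051) and PPP1R15A (without sh3 replicate 2 or 3, adjusted p = 0.053 and 0.0505) were lost on leaving out a library.

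Of 15 other cytosolic tRNA synthetases 9 were higher and 3 lower with sh1 (60% and 20%), and 4 higher and none lower with sh3 (26.7% higher). Without sh1 replicate 1 or shNC replicate 2 the 3 lower with sh1 became 1, and with sh3 the lower count was 2 with library totals or without sh1 replicate 1 and 1 with DESeq2 or without shNC replicate 3. Of 17 mitochondrial ones 10 were higher and 1 lower with sh1 (58.8% and 5.88%), and 5 higher and none lower with sh3 (29.4% higher), the 5 becoming 3 without sh3 replicate 3. FARSB, a chain of the phenylalanyl enzyme, gave 0.66 and 0.20, and the lysyl enzyme KARS1 0.35 and 0.24 with sh1 and sh3 (adjusted p = 3.1e-07 and 4.2e-06 with sh1, 0.0057 and 1.8e-04 with sh3). VARS1 gave 0.37 with sh1 (adjusted p = 2.7e-05) and 0.11 with sh3 (adjusted p = 0.070, and 7.0e-04 without shNC replicate 3). WARS2 rose with sh1 at 0.55 (adjusted p = 2.3e-05), beside 0.02 with sh3 (adjusted p = 0.90). NARS2 gave 0.23 and 0.33 (adjusted p = 0.017 and 0.0028), the sh1 call being lost without sh1 replicate 1 or 2 or shNC replicate 2 (adjusted p = 0.076, 0.064 and 0.069).

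Other amino acid transporters gave no gene higher and 6 of 17 lower with sh1 (35.3% lower), and 3 higher and 5 lower with sh3 (17.6% and 29.4%). Without sh1 replicate 1 or 2, 1 was higher with sh1. SLC7A2, a second carrier of arginine and lysine, fell to 19.9 ± 1.55 CPM in sh1 and 19.2 ± 2.18 CPM in sh3, against 37.7 ± 0.67 CPM in shNC (SD, n = 3 each), at log2 fold changes of -0.92 and -0.97 (adjusted p = 3.5e-06 and 5.7e-06). The cystine carrier SLC7A11 gave -0.64 and -0.28 (adjusted p = 1.4e-05 and 0.0096). SLC38A7, a lysosomal glutamine and asparagine carrier, gave -0.12 with sh1 (adjusted p = 0.13, and 0.047 with library totals) and -0.76 with sh3 (adjusted p = 3.1e-06).

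Of 15 further folate, glycine and serine genes 9 were higher and 3 lower with sh1 (60% and 20%), and 3 higher and 3 lower with sh3 (20% each). Thymidylate synthase TYMS rose at 0.30 and 0.46 (adjusted p = 4.0e-04 with sh1 and 3.4e-05 with sh3). The glycine-cleaving enzyme GLDC rose with sh1 at 0.75 (adjusted p = 9.8e-05), beside -0.02 with sh3 (adjusted p = 0.91). Among 17 glutamine, glutamate, aspartate, proline and urea-cycle genes 6 were higher and 5 lower with sh1 (35.3% and 29.4%), and 2 higher and 7 lower with sh3 (11.8% and 41.2%), the 2 becoming 4 without shNC replicate 3 or with DESeq2. Argininosuccinate synthase ASS1, which arginine-making cells need, fell to 21.7 ± 1.30 CPM in sh1 and 20.7 ± 1.20 CPM in sh3, against 50.8 ± 7.89 CPM in shNC (SD, n = 3 each, log2 fold changes -1.23 and -1.29, adjusted p = 1.6e-06 and 2.8e-06), and the aspartate aminotransferase GOT1 rose at 0.44 and 0.38 (adjusted p = 0.0025 and 0.0097). ALDH4A1, of proline breakdown, gave 0.80 with sh1 (adjusted p = 3.4e-05) and 0.22 with sh3 (adjusted p = 0.12).

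Among 20 other stress-response targets 3 were higher and 8 lower with sh1 (15% and 40%), and 2 higher and 8 lower with sh3 (10% and 40%). Leading these falls were CTH, of cysteine synthesis, at -2.41 and -2.20, the secreted stress factor GDF15 at -2.47 and -1.84, and the mTORC1 inhibitor DDIT4 at -2.54 and -1.46 (adjusted p = 1.5e-06, 1.0e-04 and 3.2e-09 with sh1, 7.1e-06, 0.0013 and 4.0e-07 with sh3). Of 20 amino acid sensing and mTORC1 genes 4 were higher and 7 lower with sh1 (20% and 35%), and 2 higher and 5 lower with sh3 (10% and 25%), the 5 becoming 3 without shNC replicate 2. The mTOR-binding inhibitor DEPTOR gave -1.45 and -1.63, the kinase MTOR 0.45 and 0.36, and the lysosomal GTPase RRAGB -0.38 and -0.34 (adjusted p = 9.0e-05, 1.5e-06 and 0.0041 with sh1, 8.2e-05, 1.9e-05 and 0.011 with sh3). The sh3 call of RRAGB was lost without shNC replicate 2 (adjusted p = 0.055).

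**Figure D4:**
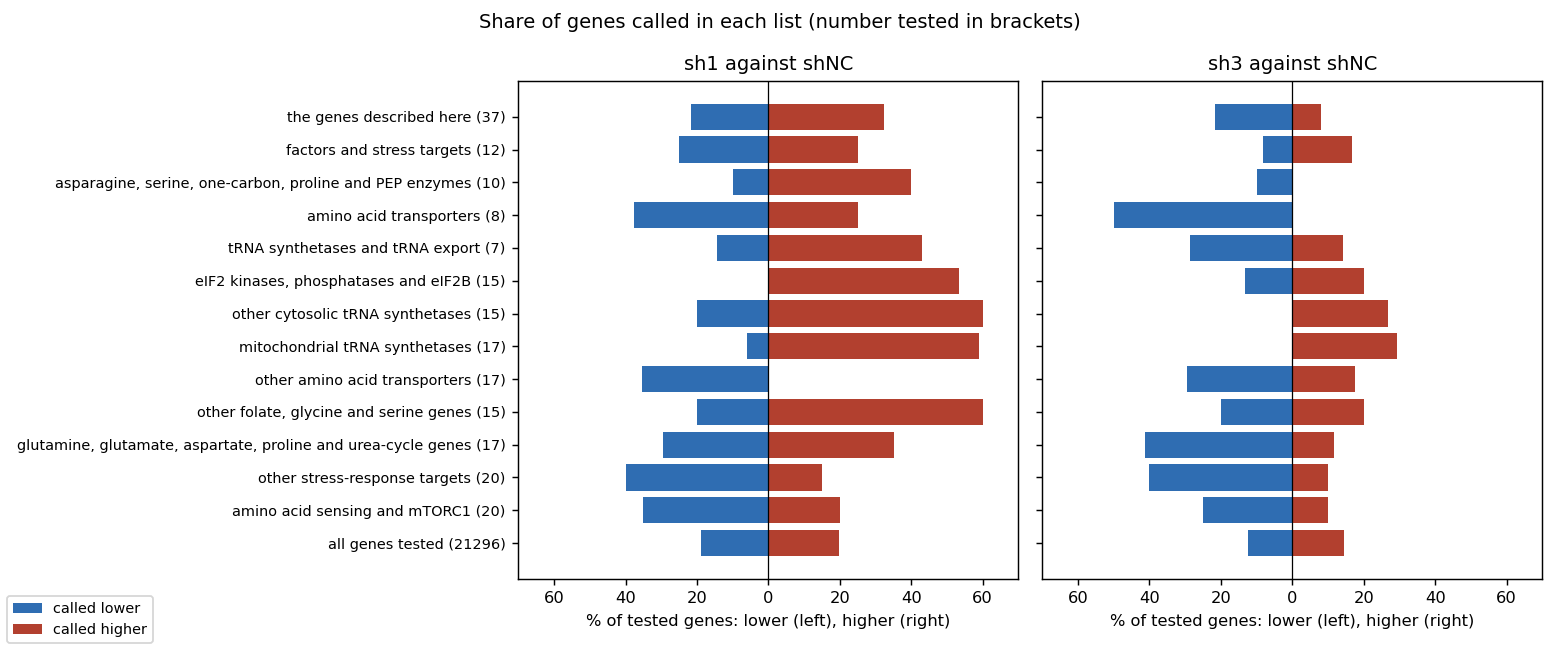
Share of tested genes called lower (blue, left of 0) and higher (red, right of 0) with sh1 and with sh3 against shNC, in percent, for the 37 genes, their 4 role groups, the 8 lists of other pathway genes and all genes tested, with the number tested in brackets. With sh1, 10 of 17 mitochondrial tRNA synthetase genes and none of 17 other transporters are on the higher side.

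Several members share their place with another gene of the table, and no source used here tells if reads were counted by strand. DDIT3 averaged 10.1 CPM under MARS1 at 134.5 CPM on the opposite strand, ATF5 31.4 CPM beside NUP62 at 113.5 CPM, ALDH1L2 3.03 CPM beside NOPCHAP1 at 17.9 CPM, and SLC6A9 3.31 CPM beside CCDC24 at 14.9 CPM. The values of these 4 genes are uncertain for that reason. AARS1, GARS1 and PCK2 overlap rows on the opposite strand that are less abundant than themselves, but not small beside their changes. DDX19B averaged 37.2 CPM, where AARS1 had means of 169.7 CPM in sh1 and 205.4 CPM in shNC. GARS1-DT averaged 16.6 CPM, where GARS1 had 81.7 CPM in sh1 and 68.0 CPM in shNC. If strand was not used in counting, the values of these genes are uncertain as well. ASNS, at 11.5 CPM, overlaps ENSG00000284707 at 3.96 CPM on its own strand. Counting by strand would not separate them, so the ASNS values are uncertain too.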

How the data were processed

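RNA from 9 SKOV3 libraries was poly(A)-selected, made into dUTP-marked libraries and sequenced in pairs, per the labels' protocols. The authors deposited 1 table that gives each gene's read counts as whole numbers without normalization. In the same table the authors deposited FPKM values, which the file headers name as such. The submitters' processing notes name GRCh38, cutadapt 1.9, HISAT2 2.2.1, StringTie 2.1.6, and DESeq2 and edgeR. Their roles and settings, the annotation and any use of strand are not given in those notes.

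Counts were tested with edgeR 4.0.16 in R 4.3.3 (filterByExpr with a minimum count of 10, TMM, glmQLFit, glmQLFTest). The 9 libraries were fitted together, each group with its own mean, without a replicate term, for sh1 minus shNC, sh3 minus shNC and sh3 minus sh1. Benjamini-Hochberg adjustment ran over all 21296 genes tested, and a gene was called at an adjusted p under 0.05, two-sided. The raw p was under 0.05 for 23, 18 and 20 of the 37 genes in that order. The SE of a log2 fold change was its size divided by the square root of F. CPM used TMM-scaled totals, and FPKM served for levels between genes and for marker sums. The floor of 3 counts covers counting error alone, as PCR duplicates are not separate molecules. Alternatives were DESeq2 1.42.0, a fit with no filter, library totals, the replicate number as a block, the 2 compared groups alone, and each library left out. The fitting steps were tested on simulated data. Of 100 genes changed 1.5-fold, 67 were recovered for sh1 and 71 for sh3. Of 100 changed 2-fold, 79 and 75 were recovered. False calls numbered 12 for sh1 and 3 for sh3. Smaller changes were not simulated, so a missing call does not show that a gene was unchanged.

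The members and all lists were chosen with earlier results of these data known. Given in full were ATF4 and, per role, up to 4 members with the largest mean change of both hairpins among those called with at least 1, and per list of other genes up to 3 by the same measure. PSAT1, DDIT3, ASNS, PHGDH, SLC3A2, WARS1 and SLC7A1 were given per library outside that rule, after their values were seen. Members averaging under 1 FPKM are described as low and given no values per library. Single genes that the rule picked from the lists are not all reported here. FGF21 and CD3E of the lists are not analysed here.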

Additional observations from a re-analysis of the deposited data

Results flagged for a closer look

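EPRS1 was the one member called in opposite directions by the hairpins, higher with sh1 (log2 fold change 0.14, adjusted p = 0.012) and lower with sh3 (-0.20, adjusted p = 0.0030). The difference itself, sh3 minus sh1, was -0.341 (adjusted p = 7.5e-05, edgeR), with all 3 sh3 libraries below all 3 sh1 libraries.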

How the results depend on the processing

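The 14 alternatives gave 1554 values for the 37 genes: 1476 kept their direction and their side of the threshold or were uncalled in both, 54 lost a call, 23 gained one and 1 reversed, SLC7A5 with sh3, whose values with a library left out ran from -0.13 to 0.15 (without shNC replicate 2 and 3). Members called higher with sh3 moved by over 1.5 times, from 3 in all 9 libraries to 5 without sh3 replicate 1 and 6 without shNC replicate 3. With a library left out, members called higher and lower ranged over 9 to 13 and 6 to 9 with sh1, 3 to 6 and 7 to 10 with sh3, and 4 to 6 and 10 to 13 for sh3 against sh1. No other count over all 37 genes, over the 136 other pathway genes or over the whole table moved by over 1.5 times. Small counts of single roles and lists did, and many of those against shNC stand beside them in the text. Those for sh3 against sh1 are not given by role or list. For the 24 genes outside the 37 that the naming rule picked, the alternatives were added after seeing the data, and 20 of 1008 values lost a call, 8 gained one and none reversed. Deviations from the group means were correlated between libraries over 5000 genes. Same-number correlations ran from -0.177 to 0.13, and different-number ones from -0.0955 to 0.183. No pairing by replicate number was seen, but with 3 libraries per group this check cannot exclude one. With the replicate block 11 members were higher and 8 lower with sh1, 3 and 7 with sh3, and 5 and 13 for sh3 against sh1. The block ended the calls of STC2 with sh1 (adjusted p = 0.0785), NUPR1 with sh3 (0.0638) and AARS1 for sh3 against sh1 (0.0594), and added SLC3A2 there (0.0356). The cause of these changes was not tested. Depth limits STXBP6, STC2, CHAC1, ALDH1L2 and SLC6A9, whose counts are low.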
